A study of Homo sapiens with 12 samples.

Results

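The MYC and MAX network was measured as 10 genes, MYC, MAX, MXD1, MXD3, MXD4, MXI1, MNT, MLX, MLXIP and MGA, out of 18846 genes with a probe on the array. Every probe was taken whose gene symbol, updated through its Entrez identifier, was one of these names, which gave 19 probes. A probe counted as detected on an array when its detection p, the share of negative control beads that were as bright, was below 0.01. Of the 19 probes, 10 were detected on all 12 arrays and were tested; they belong to 7 genes, MYC, MAX, MXD1, MXD3, MXD4, MNT and MLX, among 8113 genes tested. The other 9 probes, which include every probe of MXI1, MLXIP and MGA, were not detected on any array.

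The samples were cultures of L540, an established CD30-positive cell line from Hodgkin's lymphoma, with 2 arrays in each of 6 groups. All cultures were kept for 16 h before treatment, and proteins were given in PBS at a final 10 µg/ml. The groups were untreated cells, cells given the CD30 ligand CD153 fused to an Fc part (CD30L-Fc), and cells given one of the anti-CD30 monoclonal antibodies T104, PW30, T427 and T408, of which PW30 is labelled a chimera of mouse and human. Treatment lasted 8 h according to the study's design text, which corrects the 24 h of the labels; the same text lists an antibody T428 where the labels have T408, and the label is used here. The duplicates are described as biological, all come from 1 cell line, and no isotype antibody or free Fc group was analysed here. Whole-genome Illumina bead arrays were used, which compare a probe between arrays but not the level of one probe with another.

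MYC is a transcription factor that acts as a pair with MAX and binds the E-box, a short palindromic DNA motif, to raise the expression of genes for growth and division. The MXD proteins (MXD1, MXD3, MXD4 and MXI1), MNT and MGA also pair with MAX, bind the same motif and repress transcription, the MXD proteins and MNT through SIN3 and histone deacetylases. MLX pairs with MLXIP, also called MondoA, in a parallel branch that responds to glucose metabolites, and it can also pair with some of the repressors. CD30, encoded by TNFRSF8, is a receptor of the tumour necrosis factor receptor family that is abundant on Hodgkin cells.

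RefSeq promoter sequences (GRCh38.p14) were found for 9 of the 10 members, all but MYC, 14 promoters in all. The MYC promoter was therefore not searched for either motif. The E-box CACGTG, which is its own reverse complement, lay within the 250 bases before the transcription start in 3 of these 14 promoters, those of MXD4, MNT and MLX, and in 6.345% of all 35114 promoters of that length. The promoters of MXD1 and MNT are shown because these were the members that changed, and the 30-base windows around the E-box of MLX and MXD4 are shown to set that motif beside the one in MNT. Capitals mark the E-box, and each sequence is written 5′ to 3′ on the strand of the gene.
MXD1 promoter, chr2:69914859-69915108, plus strand: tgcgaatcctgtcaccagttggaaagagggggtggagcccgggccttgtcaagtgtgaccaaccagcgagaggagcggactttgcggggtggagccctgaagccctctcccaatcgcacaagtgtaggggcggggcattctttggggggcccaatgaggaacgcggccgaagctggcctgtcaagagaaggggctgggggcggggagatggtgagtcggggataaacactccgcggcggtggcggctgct
MNT promoter, chr17:2401061-2401310, minus strand: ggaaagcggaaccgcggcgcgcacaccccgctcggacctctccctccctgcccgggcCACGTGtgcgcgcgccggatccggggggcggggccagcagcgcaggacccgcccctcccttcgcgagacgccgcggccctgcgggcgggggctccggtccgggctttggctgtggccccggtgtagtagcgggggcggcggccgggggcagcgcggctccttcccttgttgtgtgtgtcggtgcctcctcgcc
MLX E-box window, chr17:42567038-42567067, plus strand: gcgggcgcgggtCACGTGggcacgccaccc
MXD4 E-box window, chr4:2262330-2262359, minus strand: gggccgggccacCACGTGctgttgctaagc
The E-box began 193 bases before the start site in MNT, 50 bases before it in MLX and 238 bases before it in MXD4, and these letters were not in the 250 bases shown for MXD1. The kappaB consensus, searched on both strands, matched 0 of the 14 promoters and 5.206% of all promoters. A match in these windows is a description of the letters and shows no binding.

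The 12 arrays had a median signal between 129.9 and 151.7 before normalisation, 10910 to 12005 detected probes, and a correlation between duplicates of 0.989 to 0.993. The median signal differed by group, from 129.9 to 136.3 on the arrays of PW30, T427 and T408 and from 144.0 to 151.7 on those of untreated cells and CD30L-Fc, and the part of this in the results was tested only through the scaling. Markers of the cell line were present, with 6 of 8 Hodgkin lymphoma line genes detected on the untreated arrays, while 0 of the B cell markers and 0 of the fibroblast and epithelial markers were detected on any array; 2 of 5 T cell and 2 of 5 monocyte markers were detected in every group. TNFRSF8 itself did not pass the test in any treatment, with log2 changes between -0.30 and 0.04. Changes are given on the log2 scale of normalised signal, tested with limma in 1 fit over all 6 groups, with p-values adjusted over the 8113 genes of a comparison by the Benjamini-Hochberg method and called below 0.05. With 2 arrays against 2, an exact permutation test of a single value cannot give a p below 0.333. Every call therefore rests on a spread that the fit pools over all 6 groups and that limma shares across genes.

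The repressor MXD1 was called higher than in untreated cells after CD30L-Fc and PW30 only, and the repressor MNT lower after PW30 only. MYC, MAX, MXD3, MXD4 and MLX did not pass the test in any of the 15 comparisons. Against untreated cells, 1 of the 7 tested members was called after CD30L-Fc (MXD1, higher), where 8.33% of all genes tested were called. After PW30, 2 of 7 were called (MXD1 higher, MNT lower), against 11.1% of all genes. After T104, 0 of 7 were called against 9.43% of all genes, although 3 members, MXD1, MXD3 and MNT, had an unadjusted limma p below 0.05. T427 and T408 called 0 of 7 members, and the background was 0.333% and 0.271% of all genes. Read by the brightest probe of each, 0 members had an unadjusted p below 0.05 there. The arrays of treated and untreated cells did not overlap for 4 of 7 members after CD30L-Fc (49.7% of all genes), 4 after T104 (50.6%), 4 after PW30 (51.1%), 1 after T427 (34.1%) and 1 after T408 (34.8%). The first 3 of these shares are near the background, and the last pair lies below it. All 5 comparisons share the same 2 untreated arrays. Of the genes called after PW30, 56.7% were higher with quantile normalisation and 38.9% with median scaling, so counts by direction in that comparison depend on the scaling.

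**Figure D1:**
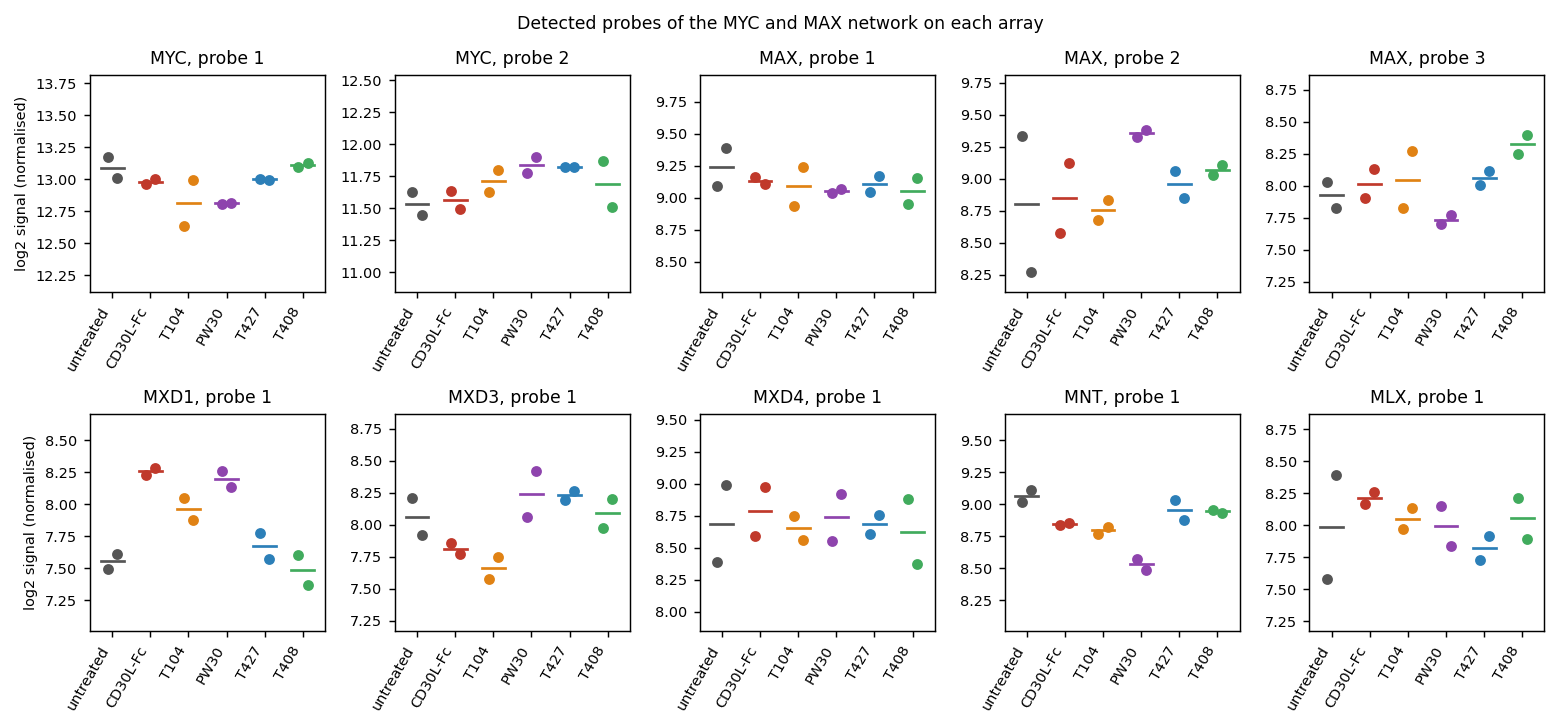
Log2 normalised signal of the 10 detected probes (vertical axis, each panel spanning the same log2 range around its own mean) in the 6 groups (horizontal axis); points are single arrays, replicate 1 on the left, and lines are group means. The MXD1 arrays of CD30L-Fc, T104 and PW30 sit above both untreated arrays, and the MNT arrays of PW30, at 8.57 and 8.48, are the lowest of the 12.

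MXD1, the MAX partner classically induced as cells leave the cycle and differentiate, was called in more comparisons than any other member. Its log2 signal was 7.50 and 7.61 on the untreated arrays and 8.23 and 8.29 after CD30L-Fc. It was 8.05 and 7.88 after T104 and 8.26 and 8.13 after PW30. After T427 it was 7.77 and 7.57, and after T408 it was 7.61 and 7.37. The arrays of CD30L-Fc, T104 and PW30 lay above both untreated arrays, whereas those of T427 and T408 overlapped them. MXD1 rose by 0.70 ± 0.13 (SE, n = 2 against 2) after CD30L-Fc, a 1.63-fold change (95% interval 1.34 to 1.99; limma adjusted p = 0.00479). After PW30 it rose by 0.64 ± 0.13, or 1.56-fold (95% interval 1.28 to 1.90; limma adjusted p = 0.00745). Without PW30 replicate 1 or without untreated replicate 1 the PW30 call was lost, with limma adjusted p-values of 0.0577 and 0.0503. The difference after T104 was 0.41 (95% interval 0.12 to 0.70) and did not pass (limma adjusted p = 0.0767). For T427 the difference was 0.12 (95% interval -0.17 to 0.41), and for T408 it was -0.07 (95% interval -0.35 to 0.22), on log2.

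Between antibodies, MXD1 was called only for PW30 against T427 and for PW30 against T408. Compared with CD30L-Fc, MXD1 was lower after T427 by a log2 difference of -0.58 ± 0.13 (limma adjusted p = 0.0227), where 1 of 7 members and 4.99% of all genes were called. It was lower after T408 as well, at -0.77 ± 0.13 (limma adjusted p = 0.00469), again 1 of 7 members, with 5.32% of all genes called. PW30 gave more MXD1 signal than T427, by 0.52 ± 0.13 (limma adjusted p = 0.0309), and than T408, by 0.71 ± 0.13 (limma adjusted p = 0.00679). These antibody pairs called 2 of 7 members each, MXD1 and MNT, with backgrounds of 7.48% and 6.69%. Leaving out any 1 of the 4 arrays ended the MXD1 calls of T427 against CD30L-Fc (limma adjusted p from 0.0519 to 0.181) and of PW30 against T427 (from 0.0621 to 0.187). The call of T408 against CD30L-Fc was lost without T408 replicate 2 (limma adjusted p = 0.0531), and that of PW30 against T408 without PW30 replicate 1 or T408 replicate 2 (0.0531 and 0.0731). Leaving out any 1 of the 4 arrays ended the MXD1 calls of T427 against CD30L-Fc (limma adjusted p from 0.0519 to 0.181) and of PW30 against T427 (from 0.0621 to 0.187). The call of T408 against CD30L-Fc was lost without T408 replicate 2 (limma adjusted p = 0.0531), and that of PW30 against T408 without PW30 replicate 1 or T408 replicate 2 (0.0531 and 0.0731). Leaving out any 1 of the 4 arrays ended the MXD1 calls of T427 against CD30L-Fc (limma adjusted p from 0.0519 to 0.181) and of PW30 against T427 (from 0.0621 to 0.187). The call of T408 against CD30L-Fc was lost without T408 replicate 2 (limma adjusted p = 0.0531), and that of PW30 against T408 without PW30 replicate 1 or T408 replicate 2 (0.0531 and 0.0731). The difference between PW30 and CD30L-Fc was -0.06 (95% interval -0.35 to 0.23), and that comparison called 0 of 7 members and 0.16% of all genes. T104 was below CD30L-Fc by -0.29 (95% interval -0.58 to -0.01) without passing (limma adjusted p = 0.999), in a comparison with 0 of 7 members and 0 of 8113 genes called and 278 genes at an unadjusted p below 0.05. T104 stood between the other groups, 0.29 above T427 (limma adjusted p = 0.277) and 0.48 above T408 (limma adjusted p = 0.0554). Neither of these called any of the 7 members, against 5.19% and 5.95% of all genes. PW30 against T104 called 0 of 7 members and 0.32% of all genes, with an MXD1 difference of 0.23 (95% interval -0.05 to 0.52). T408 against T427 called 0 of 7 members and 0 genes in all (386 at an unadjusted p below 0.05), with an MXD1 difference of -0.19 (95% interval -0.47 to 0.10).

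**Figure D2:**
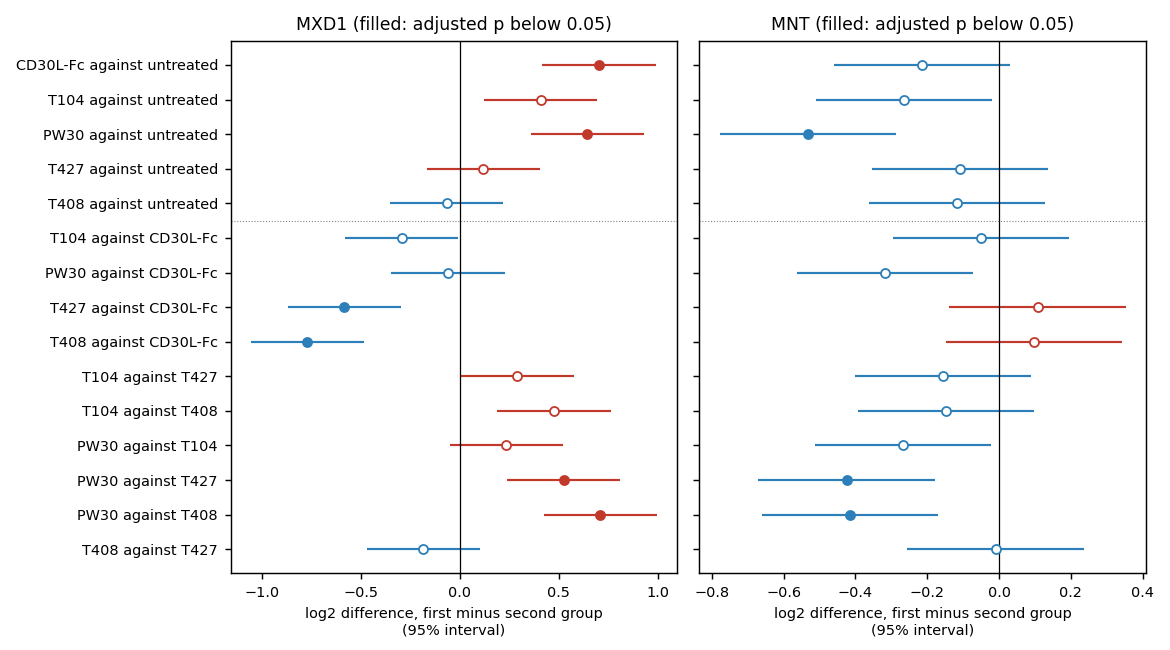
Log2 difference (horizontal axis, first minus second group) of MXD1 and MNT in the 15 comparisons (vertical axis), with 95% intervals; filled points passed limma's adjusted p below 0.05, red points are above 0 and blue points below it. MXD1 passed in 6 comparisons, from -0.77 for T408 against CD30L-Fc to 0.71 for PW30 against T408, and MNT passed in 3, each with PW30 as the first group.

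MNT, the most widely expressed repressor of the network and a partner of MAX, was lower after PW30. Its log2 signal was 9.01 and 9.11 on the untreated arrays and 8.57 and 8.48 after PW30. It was 8.84 and 8.85 after CD30L-Fc and 8.77 and 8.82 after T104. T427 gave 9.03 and 8.87, and T408 gave 8.96 and 8.93. The PW30 arrays were below all the others, those of CD30L-Fc, T104 and T408 lay below both untreated arrays, and those of T427 overlapped the untreated arrays. MNT fell by 0.53 ± 0.11 (SE, n = 2 against 2) after PW30 on log2, 1.45-fold lower (limma adjusted p = 0.00928). That call was lost in a fit of only these 4 arrays, without PW30 replicate 2 and without untreated replicate 2, where the limma adjusted p-values were 0.0770, 0.0581 and 0.0514. The differences after CD30L-Fc, -0.22 (95% interval -0.46 to 0.03), and after T104, -0.26 (95% interval -0.51 to -0.02), did not pass (limma adjusted p = 0.306 and 0.185). PW30 was also below T427, by a log2 difference of -0.42 ± 0.11 (limma adjusted p = 0.0397), and below T408, by -0.42 ± 0.11 (limma adjusted p = 0.0486). Leaving out any 1 of their 4 arrays ended both of these calls, with limma adjusted p-values from 0.0717 to 0.236 against T427 and from 0.104 to 0.196 against T408. Leaving out any 1 of their 4 arrays ended both of these calls, with limma adjusted p-values from 0.0717 to 0.236 against T427 and from 0.104 to 0.196 against T408. Leaving out any 1 of their 4 arrays ended both of these calls, with limma adjusted p-values from 0.0717 to 0.236 against T427 and from 0.104 to 0.196 against T408. Against CD30L-Fc the PW30 difference of -0.32 (95% interval -0.56 to -0.07) did not pass (limma adjusted p = 0.271), nor did that against T104 of -0.27 (95% interval -0.51 to -0.02; limma adjusted p = 0.361).

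MYC was bright on every array and was measured by a pair of probes. The brighter probe read 13.17 and 13.01 in untreated cells, 12.96 and 13.003 after CD30L-Fc, and 12.63 and 12.99 after T104. It read 12.80 and 12.82 after PW30, 13.004 and 12.99 after T427, and 13.09 and 13.13 after T408. The PW30 arrays and 1 of the T104 arrays were the lowest, and the T408 arrays overlapped the untreated ones. The log2 difference from untreated cells was -0.28 (95% interval -0.57 to 0.01; limma adjusted p = 0.203) after PW30 and -0.28 (95% interval -0.57 to 0.01; limma adjusted p = 0.236) after T104. It was -0.11 (95% interval -0.40 to 0.18) after CD30L-Fc, -0.09 (95% interval -0.38 to 0.20) after T427 and 0.02 (95% interval -0.27 to 0.31) after T408. A fall of more than 1.48-fold in MYC signal lay outside the 95% interval of this probe in each of these comparisons.

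The other MYC probe, for the same RefSeq transcript, lay on the other side of its untreated level in most treatments. It read 11.63 and 11.45 in untreated cells, 11.63 and 11.80 after T104, and 11.78 and 11.90 after PW30. The remaining groups read 11.64 and 11.50 (CD30L-Fc), 11.83 and 11.82 (T427), and 11.87 and 11.51 (T408). Fitted among all 11949 detected probes, its log2 differences from untreated cells were 0.03, 0.18, 0.30, 0.29 and 0.16 after CD30L-Fc, T104, PW30, T427 and T408, and none passed. In these fits by probe, 7.22%, 8% and 9.78% of all probes were called after CD30L-Fc, T104 and PW30, and 0.251% and 0.259% after T427 and T408. The lowest of its limma adjusted p-values was 0.221, for PW30. The probes therefore differed in sign after CD30L-Fc, T104, PW30 and T427, and no direction is given for MYC.

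**Figure D3:**
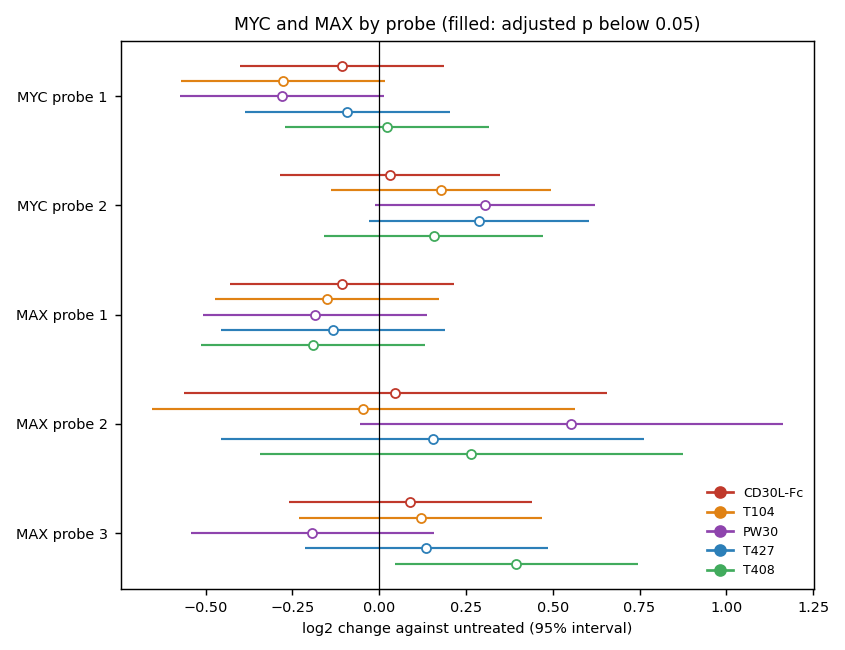
Log2 change against untreated cells (horizontal axis) of the detected MYC and MAX probes (vertical axis) in the 5 treatments, with 95% intervals from limma over all 11949 detected probes; filled points would mark an adjusted p below 0.05. No point is filled, and after PW30 the MYC probes lie on opposite sides of 0, at -0.28 and 0.30.

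MAX, the obligate partner of MYC and of the MXD repressors, was read by 3 detected probes that name different RefSeq transcripts. The brightest read 9.09 and 9.39 in untreated cells, 9.16 and 9.10 after CD30L-Fc, and 8.94 and 9.24 after T104. It read 9.04 and 9.07 after PW30, 9.04 and 9.17 after T427, and 8.95 and 9.15 after T408. Every group except PW30 overlapped the untreated arrays, and the log2 differences from untreated cells were between -0.19 and -0.11. The next probe read 9.33 and 8.27 on the untreated arrays, the widest gap between duplicates of any tested member probe, and 9.33 and 9.38 after PW30. The last probe read 8.03 and 7.83 in untreated cells, 7.70 and 7.77 after PW30, and 8.25 and 8.39 after T408. After PW30 the 3 probes gave -0.18, 0.55 and -0.19, and after T408 they gave -0.19, 0.27 and 0.39; none passed, and the lowest limma adjusted p among these was 0.246. The fourth MAX probe was not detected on any array.

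MXD3 and MXD4 are further MAX-binding repressors, MXD3 being known for expression in cycling cells in S phase. MXD3 read 8.21 and 7.92 in untreated cells, 7.85 and 7.77 after CD30L-Fc, and 7.58 and 7.75 after T104. It read 8.06 and 8.42 after PW30, 8.19 and 8.26 after T427, and 7.97 and 8.20 after T408. The CD30L-Fc and T104 arrays lay below both untreated arrays and the other groups overlapped them. The log2 difference from untreated cells was -0.25 after CD30L-Fc (limma adjusted p = 0.385), -0.40 after T104 (limma adjusted p = 0.142) and 0.18 after PW30 (limma adjusted p = 0.518). T104 was -0.57 below T427, close to the threshold (limma adjusted p = 0.0553), and it passed when only probes detected on all 12 arrays were tested (limma adjusted p = 0.0359). PW30 and T104 differed by 0.58 in MXD3 without passing (95% interval 0.24 to 0.91; limma adjusted p = 0.153).

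MXD4 differed little between group means, between 8.63 for T408 and 8.79 for CD30L-Fc, but its duplicates were far apart. The untreated arrays read 8.39 and 8.99, and those of T408 read 8.89 and 8.37. Every group overlapped the untreated arrays, the log2 differences ran from -0.06 to 0.10, and the 95% interval after CD30L-Fc was -0.39 to 0.59. MLX, the dimerisation partner of MLXIP, had the same limit, with untreated arrays at 7.58 and 8.39. Its readings were 8.17 and 8.26 after CD30L-Fc, 7.97 and 8.14 after T104, and 8.15 and 7.84 after PW30. All of these lay between the untreated arrays. T427 read 7.73 and 7.91 and T408 read 8.21 and 7.89, and the log2 differences from untreated cells ran from -0.16 to 0.23 with an SE of 0.22.

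**Figure D4:**
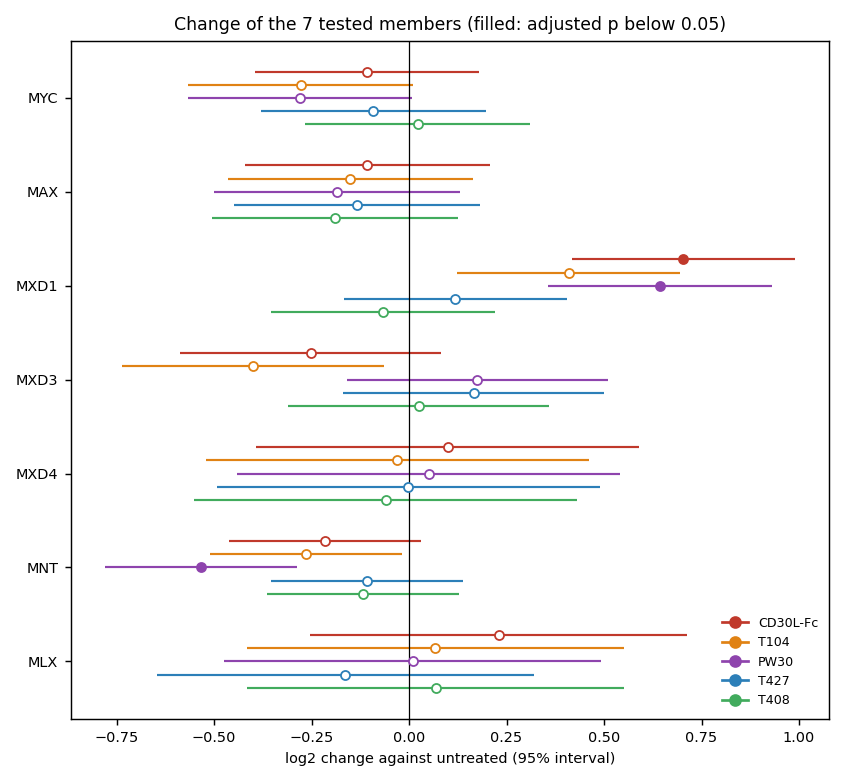
Log2 change against untreated cells (horizontal axis) of the 7 tested members (vertical axis, brightest probe of each) after the 5 treatments, with 95% intervals; filled points passed limma's adjusted p below 0.05. MXD1 after CD30L-Fc (0.70) and PW30 (0.64) and MNT after PW30 (-0.53) are the filled points.

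MXI1, another MXD-family repressor, MLXIP, the glucose-responsive partner of MLX, and MGA, a large MAX-binding repressor, gave no signal above the detection limit. The 9 probes without detection, which include 1 of MAX and 1 of MLX, had log2 signals from 4.75 to 6.53, and their lowest detection p on any array was 0.0145. The 4 MXI1 probes read between 4.75 and 6.53 and the MLXIP probe between 5.03 and 5.84, with no group set apart. MYCN and MYCL, the other MYC genes, and MLXIPL, a relative of MLXIP, were likewise not detected on any array. These genes were not well above background here, which gives no level for them.

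Partners and targets of the network were considered next. Of the 41 calls against untreated cells of genes named here outside the members, 33 were lost when 1 array of either group was left out (limma adjusted p from 0.0519 to 0.297). The 8 kept were those of CDKN1A after CD30L-Fc, T104 and PW30, of ARRDC2 and SKP2 after PW30, of GLIPR1 after T104 and PW30, and of IL1RAP after T104. Of 15 cofactors of MYC, 14 were measured, and 1 was called after CD30L-Fc, 1 after T104 and 2 after PW30, all lower, beside 8.33%, 9.43% and 11.1% of all genes tested. HDAC3, a histone deacetylase recruited by MYC for repression, read 10.98 and 10.92 in untreated cells, 10.45 and 10.30 after CD30L-Fc, 10.51 and 10.36 after T104, and 10.52 and 10.45 after PW30. All treated arrays of these groups lay below the untreated ones, and HDAC3 fell by 0.57, 0.52 and 0.47 on log2 (limma adjusted p = 0.00995, 0.0181 and 0.0275). EP300, a histone acetyltransferase, read 8.59 and 8.29 in untreated cells and 7.75 and 7.84 after PW30, and fell by 0.65 there (limma adjusted p = 0.0339). The EP300 differences after CD30L-Fc and T104 were 0.22 and 0.43 and did not pass. Of 10 corepressor subunits used by the MXD proteins and MNT, 8 were measured. Of these, 0 were called in any of the 5 comparisons with untreated cells, with list medians between -0.07 and 0.05. HDAC3 was counted with the MYC cofactors and is not in this list.

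Genes that control the turnover of the MYC protein were called in both directions. Of 14 listed, 9 were measured, and 1 was higher after CD30L-Fc, 1 was higher after T104 and 3 were lower after PW30. The share called over all genes was 8.33%, 9.43% and 11.1%, and 1 of 9 is close to it. HUWE1, a ubiquitin ligase of which MYC is a substrate, rose by 0.65 after CD30L-Fc (limma adjusted p = 0.00542) and by 0.55 after T104 (limma adjusted p = 0.0147), from 9.24 and 9.43 on the untreated arrays to 10.06 and 9.91 and to 9.85 and 9.92. SKP2, the recognition subunit of a ubiquitin ligase that targets MYC, read 11.97 and 11.86 in untreated cells and 11.35 and 11.37 after PW30, and fell by 0.55 (limma adjusted p = 0.00566). FBXW7, the recognition subunit that binds phosphorylated MYC, fell by 0.57 after PW30 (limma adjusted p = 0.0262), and the ubiquitin ligase TRIM32 fell by 0.44 (limma adjusted p = 0.0281). HUWE1 was 0.36 higher after PW30 without passing (limma adjusted p = 0.0886). SKP2 differed by -0.36 after CD30L-Fc and -0.30 after T104 (limma adjusted p = 0.0602 and 0.111). FBXW7 differed by -0.16 and -0.32 there and TRIM32 by -0.19 and -0.24, and none of these passed. Each of the named genes thus kept its sign across CD30L-Fc, T104 and PW30. The median of the 9 genes after PW30 was -0.22, beside -0.05 over all genes tested.

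Genes that MYC is known to induce were called in both directions. Of 85 in 5 lists, 77 were measured. After CD30L-Fc 2 were higher and 1 lower, after T104 1 was higher and 1 lower, and after PW30 3 were higher and 4 lower, which is 3.90%, 2.60% and 9.09% of those measured, beside 8.33%, 9.43% and 11.1% of all genes tested. The 3 higher after PW30 include UTP20, which entered the fit only because the PW30 arrays detected it. After T427 and T408 0 were called. The medians of the 77 were -0.12, -0.13, -0.10, -0.02 and -0.03 after CD30L-Fc, T104, PW30, T427 and T408, beside -0.04, -0.04, -0.05, -0.01 and -0.02 over all genes. The genes for nucleotide, polyamine and amino acid metabolism had the lowest list medians among the 5 lists after CD30L-Fc, T104 and PW30, at -0.16, -0.26 and -0.19. In that list 1 gene was called, PPAT, the first enzyme of purine synthesis, which fell by 0.53 after PW30 (limma adjusted p = 0.0326).

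The called ribosome and nucleolus genes were RRP12, a ribosome export factor, lower by -0.58 on log2 after CD30L-Fc (limma adjusted p = 0.0170), and NIP7 and POLR1C, lower by -0.45 and -0.48 after PW30 (limma adjusted p = 0.0314 and 0.0371). UTP20 was called higher after PW30 (limma adjusted p = 0.0230), with mean signals of 6.73 there and 5.93 in untreated cells. It was not well above background on either untreated array, so no fold is given. Only the PW30 arrays detected UTP20, so it entered the fit through the group where it was highest. Its call is therefore kept in the count and is not read as a rise. Of the cell cycle genes, CCND2 (cyclin D2) rose in all 3 of CD30L-Fc, T104 and PW30, by 0.58, 0.48 and 0.41 (limma adjusted p = 0.00631, 0.0173 and 0.0366). The CCND2 signals before normalisation were 64553 and 64814 after CD30L-Fc. Whether the array still read in proportion at that brightness was not tested, so the sizes of these rises are not compared. CCNE1 (cyclin E1) rose by 0.56 after CD30L-Fc and by 0.49 after PW30 (limma adjusted p = 0.0251 and 0.0420). Its difference after T104 was 0.44 and did not pass (limma adjusted p = 0.0741). MCM4, a subunit of the replicative helicase, fell by 0.58 after PW30 (limma adjusted p = 0.0492). Of the translation and chaperone genes, C1QBP fell by 0.44 after T104 (limma adjusted p = 0.0416). None of the 10 glycolysis genes measured was called in the 5 comparisons with untreated cells, and their medians ran from -0.10 to 0.03.

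Of 14 genes that MYC is known to repress, 9 were measured, with 1 higher after CD30L-Fc, 1 after T104, 3 after PW30 and 0 lower in any. Over all genes tested 8.33%, 9.43% and 11.1% were called in these comparisons, and 1 of 9 is close to that share. CDKN1A, the p21 inhibitor of cyclin-dependent kinases, read 12.14 and 12.50 in untreated cells, 13.62 and 13.40 after CD30L-Fc, 13.42 and 13.60 after T104, and 13.79 and 13.40 after PW30. All 6 of these treated arrays lay above the untreated ones, and the rises were 1.19, 1.19 and 1.27 on log2 (limma adjusted p = 0.000572, 0.000547 and 0.000357). BTG1, an antiproliferative gene, rose by 0.51 and GADD45A, a stress-induced growth arrest gene, by 0.49 after PW30 (limma adjusted p = 0.0165 and 0.0290). The list medians were 0.30, 0.29, 0.33, 0.19 and 0.12 after CD30L-Fc, T104, PW30, T427 and T408. Over all genes tested the medians were -0.04, -0.04, -0.05, -0.01 and -0.02. CDKN1A has other known regulators, p53 among them, and its call is a count in this list only.

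Of 7 targets of the MondoA and MLX pair, 5 were measured, and TXNIP and ARRDC4, among the best known of them, were not detected on any array. Called higher were 2 genes after CD30L-Fc, 1 after T104 and 2 after PW30, in comparisons that called 8.33%, 9.43% and 11.1% of all genes. ARRDC2, an arrestin-domain gene, read 8.74 and 8.71 in untreated cells and 9.50 and 9.55 after PW30, and its rises with CD30L-Fc, T104 and PW30 were 0.51, 0.49 and 0.80 (limma adjusted p = 0.0188, 0.0236 and 0.000981). PFKFB3, a regulator of glycolysis, rose by 0.59 after CD30L-Fc and by 0.59 after PW30 (limma adjusted p = 0.0105 and 0.00967). The PFKFB3 difference after T104 was 0.41 and did not pass (limma adjusted p = 0.0637). Of 12 reference genes, 9 were measured and 0 were called against untreated cells.

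**Figure D5:**
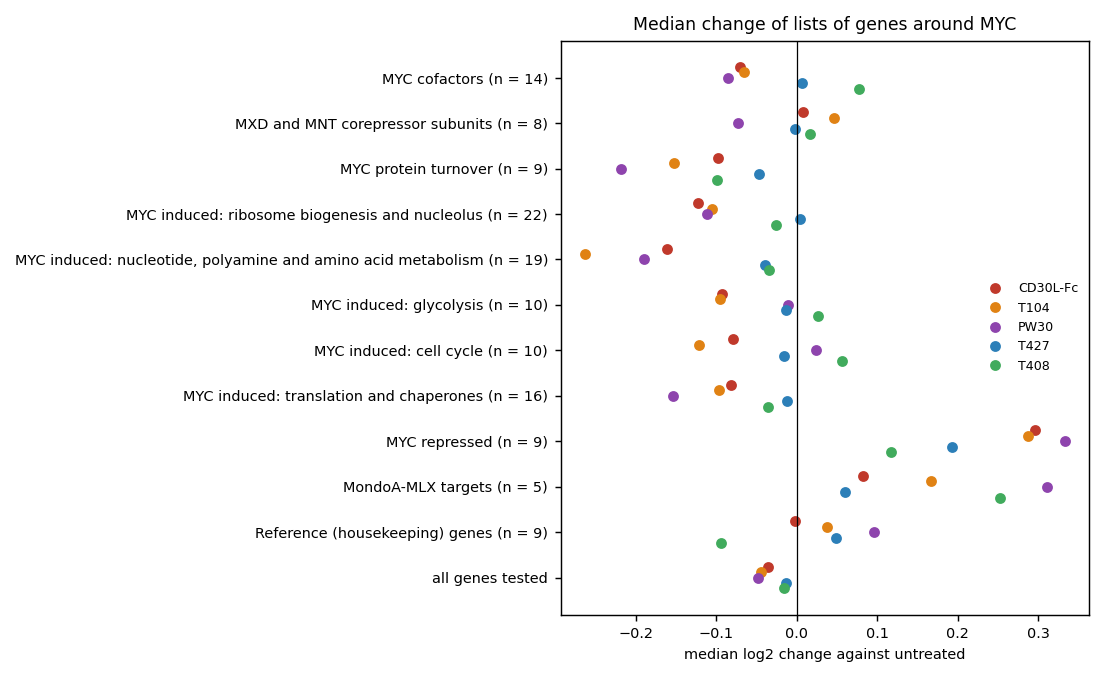
Median log2 change against untreated cells (horizontal axis) of the measured genes of 11 lists (vertical axis, n is the number of genes measured) and of all genes tested, for the 5 treatments. The list of genes that MYC represses lies furthest to the right after CD30L-Fc (0.30) and PW30 (0.33), and the list of nucleotide, polyamine and amino acid metabolism is lowest after T104 (-0.26).

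The genes whose signal followed the brighter MYC probe most closely over the 12 arrays, among 7706 genes compared, were FNIP2 (Pearson r = 0.887), IL1RAP (0.882), NELFCD (0.878), USPL1 (0.868) and AASDHPPT (0.864). The lowest were GLIPR1 (-0.887), ZNF598 (-0.879) and ZNF318 (-0.857). These r are descriptions over 12 arrays that fall into 6 groups and share a normalisation, and the lowest MYC signals were those of T104 replicate 1 and both PW30 arrays. They are the extremes of 7706 genes, and how large an r unrelated genes would reach was not tested. FNIP2 read 10.96 and 10.89 in untreated cells, 9.87 and 10.39 after T104, and 10.41 and 10.05 after PW30, and fell by 0.79 and 0.69 (limma adjusted p = 0.0121 and 0.0234). IL1RAP was called lower after T104 and PW30 (limma adjusted p = 0.000907 and 0.0152). It was not well above background on any array of CD30L-Fc, T104 or PW30. The same held for 1 of the 2 untreated arrays, so no fold is given. GLIPR1 ran the other way, from 8.77 and 9.08 in untreated cells to 10.15 and 9.81 after T104 and 9.99 and 9.92 after PW30, and rose by 1.06 and 1.03 (limma adjusted p = 0.000882 and 0.00109). After CD30L-Fc, where the MYC difference was -0.11, it read 9.49 and 9.48 and rose by 0.56 (limma adjusted p = 0.0494). The likeness was computed for the first MYC probe alone, and MYC itself did not pass in any comparison.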

How the data were processed

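Total RNA of 12 L540 cultures was hybridised to Illumina HumanHT-12 v3 BeadChips. The deposited table holds, per the file headers, a non-normalised signal intensity and a detection p-value for each of 48780 probes and each array; GenomeStudio is named in the submitters' processing notes and BeadStudio in the design text. A second deposited table holds the authors' processed values, a linear signal whose column medians lie between 138.93 and 138.99, with steps that no source used here gives. Of the probes, 28082 had 1 gene, 13 several and 20685 none in the platform annotation. Of the symbols, 28043 were taken through Entrez identifiers and 39 were kept from the annotation. Intensities were corrected with normexp from control moments inferred from the detection p-values (offset 16), quantile normalised and taken to log2 in limma 3.58.1 (R 4.3.3). A probe entered the fit if its detection p was below 0.01 in both duplicates of any group (11949 probes), and the brightest stood for its gene, which left 8113 genes. Groups came from the sample labels. One fit with 6 group means gave 15 comparisons, and it was tested on simulated data. Genes named were the 10 members, TNFRSF8, up to 4 called genes per list by p, and the 5 most and 3 least like MYC by r. The members and lists were chosen with earlier results of these data known. Replicate numbers were checked for pairing: over 15 pairs of groups the correlation of replicate differences ran from -0.076 to 0.107, so they were not treated as pairs. The number of arrays, 2 a group, limits the precision. Alternatives changed background correction, scaling, offset, filter, variance prior, adjustment, block, probe choice, arrays fitted and the arrays left out.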

Additional observations from a re-analysis of the deposited data

How the results depend on the processing

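Over the 15 alternatives, MXD1 after CD30L-Fc kept its call in all 15 (log2 0.48 to 0.76), MXD1 after PW30 in 13 (0.43 to 0.71) and MNT after PW30 in 12 (-0.62 to -0.42). MXD1 after T104 was called in 0 of 15. No called value of a member changed sign. The differences between antibodies were less stable: MNT was called in 4 of 15 for PW30 against T427 and in 2 of 15 for PW30 against T408. With only probes detected on all 12 arrays, 1 member was called in each of T104 against T427 (MXD3) and T104 against T408 (MXD1). The number of members called for PW30 against untreated cells was 1 with only its 4 arrays. For T427 against CD30L-Fc it was 0 without the filter on dim probes and with a trend in the variance prior. For PW30 against T427 it was 0 under these and with only the 4 arrays, and 1 with no background correction, median scaling, the authors' processed values, adjustment over all 15 comparisons or the replicate block. For PW30 against T408 it was 1 under the same settings apart from median scaling, with only the 4 arrays, no filter, the trend, an offset of 50 and all probes tested one by one. Leaving out 1 array in turn left the number of members called at 1 (PW30), 0 (T427 against CD30L-Fc), 0 to 1 (T408 against CD30L-Fc), 0 (PW30 against T427), 0 to 1 (PW30 against T408). The replicate block, fitted although the numbers did not pair the samples, changed no call of a member against untreated cells.

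Genes called in all fell to 500 (T104), 546 (PW30), 10 (T427) and 13 (T408) without the filter, and to 402 (CD30L-Fc), 487, 490, 5 and 9 with only 4 arrays. For T408 they rose to 34 with no background correction, 34 with the authors' values and 41 with the trend. Adjustment over all 15 comparisons gave 63 (T427) and 72 (T408). Leaving out 1 array gave 367 to 568 (CD30L-Fc), 425 to 560 (T104), 562 to 712 (PW30), 8 to 22 (T427), 14 to 31 (T408). A block for the BeadChip was not run, since the headers used here carry no chip identifier.

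Values that did not pass the test crossed 0 in 90 of 1575 member values and 56 of 2160 values of other genes, 74 and 49 of them on leaving out 1 array, and their direction is not read; the cause was not tested. On leaving out 1 array in turn, on log2 and against untreated cells where no second group is named, MYC ran from -0.0607 to 0.10 (T408), -0.35 to 0.0108 (T104 against CD30L-Fc), -0.00456 to 0.0387 (T427 against CD30L-Fc), -0.18 to 0.18 (PW30 against T104). MAX ran from -0.25 to 0.0403 (CD30L-Fc), -0.30 to 0.00265 (T104), -0.28 to 0.0133 (T427), -0.20 to 0.11 (T104 against CD30L-Fc), -0.0923 to 0.0381 (T427 against CD30L-Fc), -0.19 to 0.0188 (T408 against CD30L-Fc), -0.17 to 0.14 (T104 against T427), -0.11 to 0.19 (T104 against T408), -0.19 to 0.12 (PW30 against T104), -0.12 to 0.0146 (PW30 against T427), -0.0965 to 0.11 (PW30 against T408), -0.16 to 0.0459 (T408 against T427). MXD1 ran from -0.18 to 0.0509 (T408), -0.12 to 0.00379 (PW30 against CD30L-Fc). MXD3 ran from -0.00665 to 0.36 (PW30), -0.12 to 0.17 (T408), -0.17 to 0.19 (PW30 against T427), -0.0310 to 0.33 (PW30 against T408). MXD4 ran from -0.20 to 0.40 (CD30L-Fc), -0.33 to 0.27 (T104), -0.25 to 0.35 (PW30), -0.30 to 0.30 (T427), -0.36 to 0.24 (T408), -0.32 to 0.0605 (T104 against CD30L-Fc), -0.24 to 0.14 (PW30 against CD30L-Fc), -0.29 to 0.0891 (T427 against CD30L-Fc), -0.42 to 0.0980 (T408 against CD30L-Fc), -0.12 to 0.0633 (T104 against T427), -0.23 to 0.29 (T104 against T408), -0.10 to 0.26 (PW30 against T104), -0.13 to 0.24 (PW30 against T427), -0.15 to 0.37 (PW30 against T408), -0.32 to 0.20 (T408 against T427). MNT ran from -0.0899 to 0.0711 (T408 against T427). MLX ran from -0.17 to 0.64 (CD30L-Fc), -0.34 to 0.47 (T104), -0.40 to 0.41 (PW30), -0.57 to 0.24 (T427), -0.34 to 0.47 (T408), -0.16 to 0.16 (T104 against T408), -0.21 to 0.0957 (PW30 against T104), -0.22 to 0.10 (PW30 against T408). Among other genes, TNFRSF8 ran from -0.21 to 0.0624 (CD30L-Fc), -0.18 to 0.0891 (T104), -0.71 to 0.19 (T427), -0.48 to 0.56 (T408), UTP20 ran from -0.25 to 0.11 (CD30L-Fc), -0.20 to 0.16 (T104), -0.0392 to 0.63 (T408), MCM4 ran from -0.31 to 0.0347 (CD30L-Fc), -0.13 to 0.22 (T427), -0.21 to 0.14 (T408), HUWE1 ran from -0.0841 to 0.10 (T427), -0.15 to 0.0320 (T408), FBXW7 ran from -0.21 to 0.0530 (T427), PPAT ran from -0.0641 to 0.0718 (T427), -0.14 to 0.0753 (T408), CCND2 ran from -0.15 to 0.0250 (T427), CCNE1 ran from -0.0725 to 0.30 (T427), BTG1 ran from -0.0977 to 0.0209 (T427), -0.0362 to 0.18 (T408), GADD45A ran from -0.0222 to 0.0976 (T427), ARRDC2 ran from -0.0383 to 0.16 (T427), IL1RAP ran from -0.40 to 0.11 (T427), -0.24 to 0.28 (T408), EP300 ran from -0.25 to 0.20 (T408), TRIM32 ran from -0.13 to 0.0137 (T408), NIP7 ran from -0.17 to 0.0429 (T408), C1QBP ran from -0.0875 to 0.0429 (T408), PFKFB3 ran from -0.0110 to 0.24 (T408), FNIP2 ran from -0.0840 to 0.13 (T408), NELFCD ran from -0.0680 to 0.10 (T408), AASDHPPT ran from -0.0336 to 0.0138 (T408), ZNF598 ran from -0.0798 to 0.14 (T408). No background correction turned the sign of MLX to -0.00403 (PW30). Median scaling turned the sign of MXD4 to -0.0460 (PW30) and -0.0667 (T104 against T408) and -0.0232 (PW30 against T427) and -0.0329 (PW30 against T408) and 0.00973 (T408 against T427), MLX to -0.0830 (PW30), PPAT to -0.0247 (T427) and 0.00399 (T408), MXD1 to 0.0126 (T408), EP300 to 0.0422 (T408), HUWE1 to 0.00134 (T408), MCM4 to 0.00937 (T408), C1QBP to 0.00872 (T408), AASDHPPT to 0.0326 (T408), MYC to -0.0507 (T427 against CD30L-Fc), MAX to -0.0680 (T104 against T408) and -0.15 (PW30 against T408) and 0.00944 (T408 against T427), MXD3 to -0.0802 (PW30 against T427) and -0.00973 (PW30 against T408), MNT to 0.0591 (T408 against T427). The authors' deposited processed values turned the sign of MLX to -0.00361 (PW30).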
